A study of Mus musculus with 6 samples.

Results

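Transcripts of 10 genes of ceramide and sphingolipid metabolism were followed in activated mouse T cell cultures with and without sphingosine-1-phosphate (S1P), the signaling lipid that is itself the last product of this pathway. The genes were taken by name for their place in ceramide synthesis and breakdown, with earlier results of these data known, and were matched to Ensembl identifiers through GENCODE vM39 symbols. They are Sptlc1, Sptlc2, Cers2, Cers5, Cers6, Degs1, Asah1, Ugcg, Sgms1 and Smpdl3b, and all 10 were found among the 56941 identifiers of the count table and among the 13299 genes with enough counts for a test. RNA was sequenced from 6 cultures, 3 labelled vehicle control (no S1P) and 3 labelled S1P treated (5 µM). Both groups were started from B6 mouse spleen, activated on plate-bound anti-CD3 and anti-CD28 with IL-2 at 100 U/ml for 3 days in medium with fetal calf serum, and given vehicle or S1P at 24 h. The labels describe naïve CD8+ T cells that had been purified, whereas the culture method of the study allows for either purified T cells or whole splenocytes. The age and number of the mice are not given in the labels, which call the samples biological replicates, so the p-values measure the spread between these cultures, whatever its source.

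Sphingolipids are built on a long-chain base. Serine palmitoyltransferase, a complex of SPTLC1, SPTLC2 and a small subunit in the endoplasmic reticulum, joins serine with palmitoyl-CoA, ceramide synthases then attach a second fatty acid, and the desaturase DEGS1 turns the product into ceramide. Ceramide leaves this pool as glucosylceramide (made by UGCG) or as sphingomyelin (made by SGMS1), and in the lysosome acid ceramidase (ASAH1) splits it into a fatty acid and sphingosine, from which sphingosine kinases make S1P. In T cells ceramide is known for its part in stress and death signaling, and glycosphingolipids and sphingomyelin for their place in the plasma membrane around the T cell receptor.

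Total counts lay between 12048880 and 17384084 per sample, and S1P-treated replicate 2 stood apart by its share of mitochondrially encoded counts (7.80% against 4.10% to 4.93% in the other samples). Its counts over the tested genes also differed more from S1P-treated replicates 1 and 3 (chi-square per gene 31.4 and 17.9). Between S1P-treated replicates 1 and 3 this value was 5.97, and between vehicle-treated samples it was 3.77 to 3.97. The cultures were not CD8+ T cells alone by their markers. Cd8a was at 3058 to 3694 normalized counts in vehicle-treated and 1944 to 2122 in S1P-treated samples, Cd4 was at 2743 to 3749 over all samples, and the summed level of 8 B cell markers was 9301 to 11656 in vehicle-treated and 9518 to 10905 in S1P-treated samples. None of the 8 B cell markers was at 0, and 6 of 8 myeloid markers had under 10 counts in every sample. The remaining myeloid markers, Mpeg1 and Cd68, were at 1128 to 1565 and 39.3 to 66.0 normalized counts over all samples. The 8 markers listed for CD8 T cells include genes that are not particular to them, such as Cd3d, Cd3e, Cd3g, Cd2 and Cd5. Cd8a and Cd8b1 were the 2 of the 8 that were lower after S1P (log2 fold changes of -0.67 and -0.55). The 1 that was higher was Cd2 (0.33). Of the 4 CD4 T cell markers 2 were higher, and of the B cell markers 1 was higher and 2 were lower. The part of these shifts in the results on sphingolipid genes was not tested.

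Of the 10 enzyme genes, 4 were called after S1P, that is, passed both cut-offs the study used, an adjusted p of 0.05 and an absolute log2 fold change (log2FC, S1P over vehicle) of 0.3. The p-values are from edgeR's quasi-likelihood test on TMM-normalized counts and were adjusted over all tested genes. Cers6 was higher, and Cers5, Ugcg and Smpdl3b were lower. Over all tested genes 12.7% were called higher and 10.4% lower, 23.1% in all. The adjusted p alone was passed by 7 of the 10, against 28.5% of all tested genes, with Sptlc1, Cers2 and Asah1 as the additional genes. The same 7 had normalized counts that did not overlap between the groups, 2 of them higher and 5 lower after S1P, against 23.0% higher and 22.6% lower of all tested genes (45.6% together). The median log2FC of the 10 was -0.14, beside 0.012 over all tested genes. In these bulk samples, fewer cells of a type and less RNA per cell cannot be told apart.

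**Figure D1:**
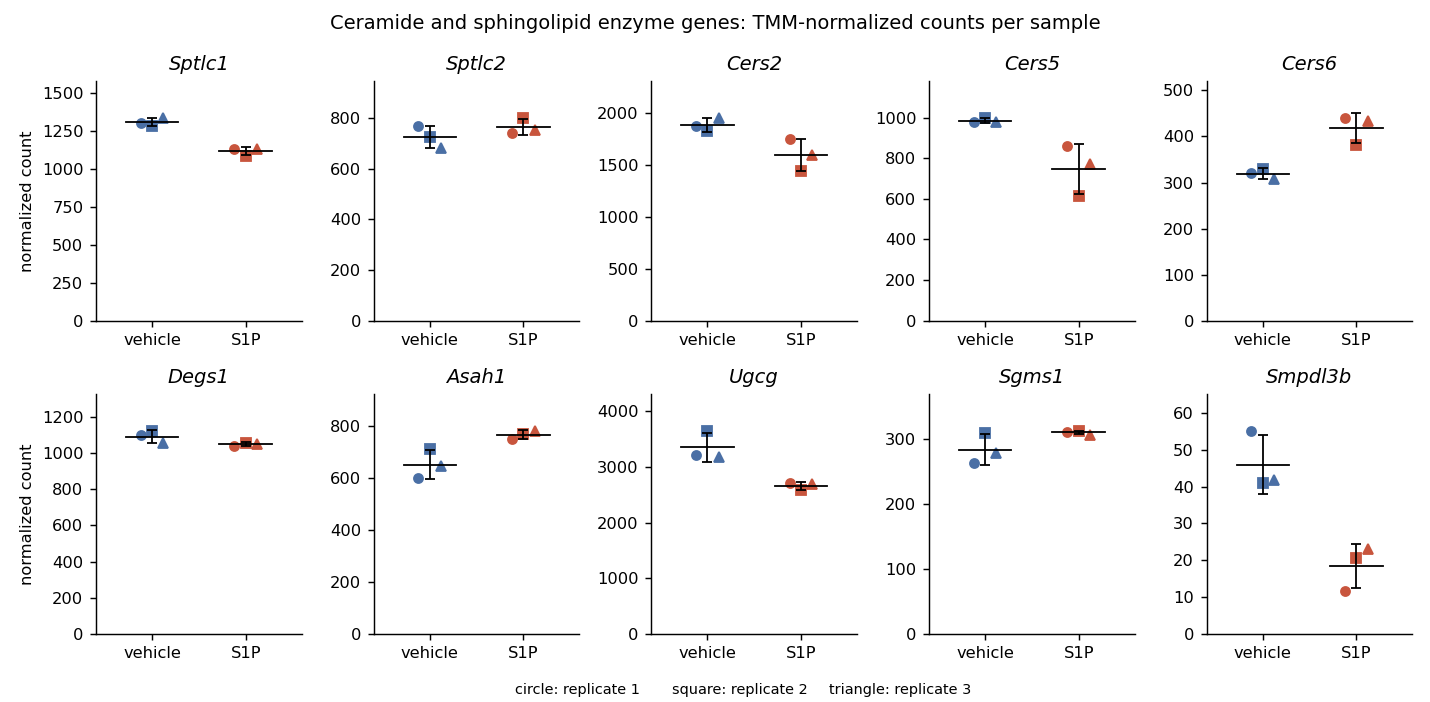
Normalized counts (TMM-scaled, vertical axes from 0) of the 10 enzyme genes in the 3 vehicle-treated (blue) and 3 S1P-treated (red) samples, with the mean and SD as bars and 1 symbol shape per replicate number. Groups are apart for Sptlc1, Cers2, Cers5, Cers6, Asah1, Ugcg and Smpdl3b, and overlap for Sptlc2, Degs1 and Sgms1.

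At the entry of the pathway, the subunits of serine palmitoyltransferase were measured. Sptlc1 (ENSMUSG00000021468, chromosome 13 from 53486729 to 53531449 of GRCm39), the subunit that anchors and stabilizes the complex, was at 1307, 1285 and 1341 normalized counts in vehicle-treated samples and at 1133, 1088 and 1135 in S1P-treated samples. Each S1P-treated sample was below each vehicle-treated one, and the spread within groups was small. The log2FC was -0.23 (standard error 0.06, edgeR adjusted p = 0.0199), which passed the adjusted p and was smaller than the fold threshold. Without vehicle-treated replicate 1, 2 or 3 it was -0.23, -0.25 or -0.21, and the edgeR adjusted p was 0.0707, 0.0507 or 0.0902. Over all alternatives it ran from 0.0124 to 0.0902. A neighbouring gene on the opposite strand, Gm60480, covers 10.2% of its exon bases.

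Sptlc2 (ENSMUSG00000021036, chromosome 12 from 87351832 to 87435267), which carries the catalytic lysine of the complex, was at 769, 725 and 680 normalized counts with vehicle and at 742, 801 and 751 with S1P. Its groups overlapped, and the log2FC of 0.07 (standard error 0.08, edgeR adjusted p = 0.494) had a 95% interval of -0.09 to 0.24. The level of Sptlc2 per length of exon was 0.327, 0.314 and 0.282 times that of Sptlc1 in vehicle-treated samples and 0.364, 0.409 and 0.368 times in S1P-treated samples, and these ratios did not overlap. This ratio contains the lower Sptlc1 described above and carries no separate test, and no background of other gene pairs was computed. The alternative subunit Sptlc3 and the small subunit Sptssb each had 1 count in total over the 6 samples. The other small subunit, Sptssa, had a log2FC of -0.24 and did not pass (edgeR adjusted p = 0.0619). Among the ORMDL genes, whose products hold the enzyme back when ceramide is plentiful, Ormdl2 fell from 173 ± 14.2 to 115 ± 27.7 normalized counts (SD, n = 3 each), a log2FC of -0.57 (edgeR adjusted p = 0.0238), and Ormdl1 and Ormdl3 had log2FC values of -0.01 and 0.05. Exons of Dnajc14 and Sarnp on the opposite strand cover 59.4% of the Ormdl2 exon bases. Ormdl2 was not called without S1P-treated replicate 3 (-0.62, edgeR adjusted p = 0.0543), nor without vehicle-treated replicate 2 (-0.59, 0.0566) or replicate 3 (-0.50, 0.0974), in an overall span of 0.00187 to 0.0974.

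Of the ceramide synthases, Cers6 was called higher and Cers5 lower. These enzymes differ in the fatty acid they attach. CERS2 prefers very-long-chain acyl-CoAs, whereas CERS5 and CERS6 both prefer palmitoyl-CoA. The 250 bases before the annotated start (canonical GENCODE transcript, read 5′ to 3′ on the strand of the gene) are shown for these 3 genes, to set Cers6 (called higher) and Cers5 (called lower) beside Cers2 (not called), the synthase with the highest level of the 3. Capitals mark CpG dinucleotides. The windows are chr3:95222145-95222394 (plus strand), chr15:99670516-99670765 (minus strand) and chr2:68691205-68691454 (plus strand) of GRCm39.
Cers2: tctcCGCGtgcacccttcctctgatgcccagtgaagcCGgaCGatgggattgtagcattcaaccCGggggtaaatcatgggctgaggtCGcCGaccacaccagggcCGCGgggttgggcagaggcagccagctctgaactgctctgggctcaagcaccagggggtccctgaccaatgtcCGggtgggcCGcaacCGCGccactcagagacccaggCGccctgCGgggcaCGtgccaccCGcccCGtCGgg
Cers5: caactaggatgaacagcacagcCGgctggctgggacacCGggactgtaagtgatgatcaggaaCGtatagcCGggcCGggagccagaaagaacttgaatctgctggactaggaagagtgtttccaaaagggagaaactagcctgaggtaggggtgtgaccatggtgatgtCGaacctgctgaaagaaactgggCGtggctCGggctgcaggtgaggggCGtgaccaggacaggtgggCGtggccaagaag
Cers6: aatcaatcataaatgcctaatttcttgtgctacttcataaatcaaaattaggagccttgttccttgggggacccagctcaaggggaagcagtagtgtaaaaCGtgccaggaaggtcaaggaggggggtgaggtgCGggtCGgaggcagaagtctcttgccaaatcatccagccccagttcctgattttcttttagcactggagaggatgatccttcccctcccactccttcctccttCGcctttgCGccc
The window of Cers2 holds 19 CpG dinucleotides, that of Cers5 10 and that of Cers6 5, and 81.9%, 56.6% and 36.4% of 21770 protein-coding genes have fewer in theirs. Both strands of the windows of all 10 genes were searched for 4 motifs, and the E-box CACGTG was found in 1, that of Cers2 (bases -23 to -18 from the start). It is present in 6.26% of the windows of all protein-coding genes. The sterol regulatory element (TCACNCCAC), the core of the ATF4 composite element (TGATGNAA) and the cAMP response element (TGACGTCA), present in 1.12%, 3.39% and 1.69% of all windows, had no match in the 10.

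Cers6 (ENSMUSG00000027035, chromosome 2 from 68691455 to 68944627) was at 321, 330 and 307 normalized counts in vehicle-treated samples and at 441, 382 and 434 in S1P-treated samples. All 3 S1P-treated samples were above all 3 vehicle-treated ones. It rose by a log2FC of 0.40 (standard error 0.09, edgeR adjusted p = 0.00749), 1.32-fold, and kept its call in all 6 fits that left out 1 sample (0.35 to 0.46) and in the other 11 settings. The 31-base stretches of its transcripts are shared with other genes for 0.161% of their number.

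Cers5 (ENSMUSG00000023021, chromosome 15 from 99632477 to 99670783) was at 978, 1000.0 and 977 normalized counts with vehicle and at 858, 612 and 771 with S1P. The vehicle-treated samples lay close together, and S1P-treated replicate 2 was the lowest. It fell by 0.39 on the log2 scale (standard error 0.10, edgeR adjusted p = 0.0161). Its size rested in part on that replicate, since without S1P-treated replicate 2 the log2FC was -0.27, under the fold threshold (edgeR adjusted p = 0.00896). Without vehicle-treated replicate 1, 2 or 3 the log2FC was -0.40, -0.39 or -0.40 and the edgeR adjusted p 0.0524, 0.0562 or 0.0536. Over all alternatives it ran from 0.000273 to 0.0562.

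Cers2 (ENSMUSG00000015714, chromosome 3 from 95221790 to 95234060) was at 1875, 1829 and 1960 normalized counts with vehicle and at 1748, 1446 and 1603 with S1P. The groups did not overlap. The log2FC was -0.24 (standard error 0.08, edgeR adjusted p = 0.0395), past the adjusted p and under the fold threshold. It met both thresholds without S1P-treated replicate 1 (-0.31, edgeR adjusted p = 0.0107). The edgeR adjusted p exceeded 0.05 without S1P-treated replicate 2 (-0.17, 0.0519) or replicate 3 (-0.25, 0.0977), and without vehicle-treated replicate 1 (-0.25, 0.104), replicate 2 (-0.26, 0.0751) or replicate 3 (-0.21, 0.147), as well as with upper-quartile factors (0.0615) or total counts (0.0521). Exons of Setdb1 and a further gene on the opposite strand cover 29.3% of the Cers2 exon bases, and the strand setting of the authors' counting is not given in the sources used here. Of the other synthases, Cers4 had a log2FC of 0.15 (edgeR adjusted p = 0.391). Cers1 had 2 counts in total and Cers3 between 0 and 10 counts per sample, too few for a test.

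Within a sample, the level of Cers6 per length of exon was 0.170, 0.170 and 0.162 times that of Cers5 in vehicle-treated samples and 0.265, 0.322 and 0.291 times in S1P-treated samples. The mean of this ratio was 1.75 times as high with S1P, and it does not depend on the scaling between libraries. Against Cers2 the ratio for Cers6 went from 0.0933 ± 0.00656 to 0.144 ± 0.00511 (SD, n = 3 each). With the longest annotated transcript as the length it was lower, at 0.0530 with vehicle and 0.0821 with S1P. Among the 4 synthases with enough counts, Cers6 held 5.52% ± 0.298 of the summed level per length with vehicle and 8.54% ± 0.354 with S1P (SD, n = 3 each). Cers5 held 32.9% ± 0.958 and 29.3% ± 1.80, and Cers2 59.2% ± 1.01 and 59.1% ± 1.09. With the longest transcript as the length, Cers6 held 3.65% with vehicle and 5.67% with S1P, Cers5 25.8% and 23.0%, and Cers2 68.9% and 69.1%. These ratios and shares were computed from the genes described above and carry no separate test.

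Degs1 (ENSMUSG00000038633, chromosome 1 from 182103335 to 182110389), which places the double bond that defines ceramide, was at 1099, 1124 and 1055 normalized counts with vehicle and at 1038, 1059 and 1053 with S1P. Its groups overlapped. The log2FC of -0.06 (standard error 0.06, edgeR adjusted p = 0.546) had a 95% interval of -0.20 to 0.09, so that a change as large as the fold threshold lay outside it. Kdsr, the reductase of the step before the synthases, had a log2FC of -0.11 (edgeR adjusted p = 0.343).

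Of the exits from ceramide, glucosylceramide synthase was lower. Ugcg (ENSMUSG00000028381, chromosome 4 from 59189035 to 59222845), the gene of the first step of glycosphingolipid synthesis, was at 3221, 3651 and 3178 normalized counts in vehicle-treated samples and at 2706, 2579 and 2696 in S1P-treated samples. The S1P-treated samples lay within a narrow span below the vehicle-treated ones, of which replicate 2 was the highest. It fell by 0.33 on the log2 scale (standard error 0.07, edgeR adjusted p = 0.00578), to 0.795 times the vehicle level. Without vehicle-treated replicate 2 the log2FC was -0.27, under the fold threshold (edgeR adjusted p = 0.0356, the highest over all alternatives, with 0.000227 as the lowest). B4galt5, whose product adds galactose to glucosylceramide, fell from 1296 ± 85.2 to 905 ± 81.6 normalized counts (SD, n = 3 each), a log2FC of -0.52 (edgeR adjusted p = 0.00106).

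Sgms1 (ENSMUSG00000040451, chromosome 19 from 32097497 to 32367505), the Golgi sphingomyelin synthase, was at 263, 310 and 279 normalized counts with vehicle and at 311, 313 and 307 with S1P. The S1P-treated samples were close to the highest vehicle-treated sample. The log2FC of 0.13 (standard error 0.09, edgeR adjusted p = 0.330) had a 95% interval of -0.08 to 0.34. The level of Ugcg per length was 39.8, 38.3 and 37.1 times that of Sgms1 in vehicle-treated samples and 28.3, 26.8 and 28.6 times in S1P-treated samples, with groups that did not overlap. The size of this ratio depended on the length used. With the longest annotated transcript as the length, its mean was 19.1 with vehicle and 13.9 with S1P, again without overlap. It contains the lower Ugcg described above and carries no separate test. Cert1, the protein that carries ceramide from the endoplasmic reticulum to the Golgi, fell from 1508 ± 83.9 to 1182 ± 23.2 normalized counts (SD, n = 3 each), a log2FC of -0.35 (edgeR adjusted p = 0.00306). Sgms2, the sphingomyelin synthase of the plasma membrane, rose from 6, 6 and 8 counts to 33, 26 and 12 counts, a log2FC of 1.95 (standard error 0.40, edgeR adjusted p = 0.00426). It stayed far below Sgms1 in every sample, at 5.10 to 33.6 normalized counts. Both Cert1 and Sgms2 kept their calls without each sample in turn.

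**Figure D2:**
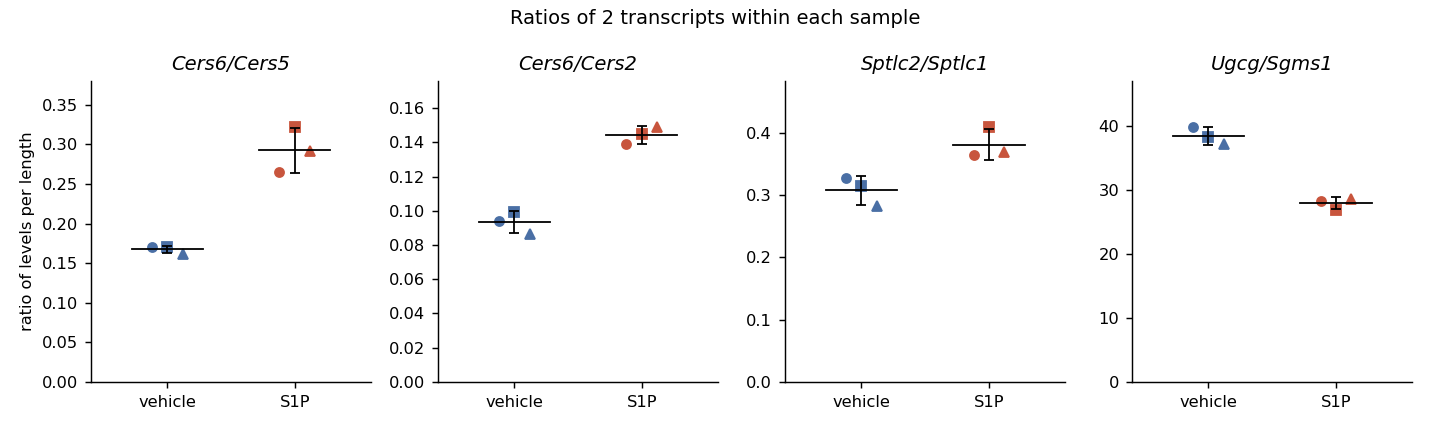
Ratio of the levels per length of exon of 2 transcripts within each sample (vertical axes from 0), for vehicle-treated (blue) and S1P-treated (red) samples, with the mean and SD as bars. The ratios Cers6 to Cers5, Cers6 to Cers2 and Sptlc2 to Sptlc1 were higher in all 3 S1P-treated samples, and Ugcg to Sgms1 was lower. The ratios carry no test separate from that of their genes.

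On the side of breakdown, Asah1 (ENSMUSG00000031591, chromosome 8 from 41792846 to 41827851), the lysosomal acid ceramidase, was at 600, 711 and 647 normalized counts with vehicle and at 751, 771 and 783 with S1P. All S1P-treated samples were above all vehicle-treated ones. The log2FC of 0.24 (standard error 0.08, edgeR adjusted p = 0.0452) passed the adjusted p by a small margin and was under the fold threshold. The adjusted p was 0.0803 with DESeq2, 0.0860 with total counts, 0.200 without a filter and 0.119 with a GC content offset, and it was 0.0524 without S1P-treated replicate 1 (0.25), 0.132 without S1P-treated replicate 3 (0.21), 0.205 without vehicle-treated replicate 1 (0.18) and 0.141 without vehicle-treated replicate 3 (0.23). Over all alternatives it ran from 0.0307 to 0.205. The other ceramidases with enough counts, Asah2, Acer2 and Acer3, had log2FC values of 0.31, 0.41 and 0.07 and did not pass (edgeR adjusted p of 0.231, 0.107 and 0.643). Acer1 had 0 counts.

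Smpdl3b (ENSMUSG00000028885, chromosome 4 from 132460276 to 132484570) had the largest change of the 10 and the fewest counts. It encodes a membrane-anchored phosphodiesterase related to acid sphingomyelinase. There were 65, 38 and 44 counts in vehicle-treated samples and 14, 16 and 20 in S1P-treated samples, or 55.2, 41.1 and 41.7 against 11.6, 20.7 and 23.1 normalized counts. No S1P-treated sample reached the lowest vehicle-treated one. It fell by 1.37 on the log2 scale (standard error 0.29, 95% interval -1.99 to -0.74, edgeR adjusted p = 0.00484), to 0.388 times the vehicle level. Without each sample in turn the log2FC lay between -1.59 and -1.07 and the call was kept. A further gene on the opposite strand, Gm69628, covers 5.59% of its exon bases. Its secreted relative Smpdl3a was called in the other direction, at 109 ± 17.9 and 146 ± 2.50 normalized counts (SD, n = 3 each, log2FC 0.43, edgeR adjusted p = 0.0435). That call was kept only without S1P-treated replicate 2 among the 6 fits that left out 1 sample. The edgeR adjusted p was 0.0782 and 0.107 without S1P-treated replicates 1 and 3, and 0.179, 0.0533 and 0.0726 without vehicle-treated replicates 1, 2 and 3, where the log2FC values were 0.42, 0.42, 0.29, 0.51 and 0.49. With DESeq2, total counts, no filter on low counts or a GC content offset it was not called either (adjusted p up to 0.0833), and the span over all alternatives was 0.0310 to 0.179. Acid sphingomyelinase itself, Smpd1, had a log2FC of 0.25 (edgeR adjusted p = 0.0887), and Smpd4, a neutral sphingomyelinase, fell with a log2FC of -0.35 (edgeR adjusted p = 0.00403).

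Levels of the genes were compared per length, as counts per kilobase of annotated exon scaled to the TMM library size (RPKM). In vehicle-treated samples Ugcg was highest at 39.5 ± 3.08, followed by Cers2 at 24.9 ± 0.871, Degs1 at 19.7 ± 0.636, Cers5 at 13.8 ± 0.183 and Sptlc1 at 13.6 ± 0.291 (SD, n = 3 each). Asah1 (6.80 ± 0.583), Sptlc2 (4.19 ± 0.256), Cers6 (2.32 ± 0.0832), Sgms1 (1.03 ± 0.0865) and Smpdl3b (0.551 ± 0.0958) came after these (SD, n = 3 each). Cers5 and Sptlc1 were the only neighbours in this order whose samples overlapped. In S1P-treated samples Sptlc1 (11.6 ± 0.278) was above Cers5 (10.5 ± 1.75), with overlap, and Cers2 (21.1 ± 1.99) overlapped with Degs1 (19.0 ± 0.195, SD, n = 3 each). The rise of Cers6 therefore took place at a low level, 3.04 ± 0.236 with S1P (SD, n = 3), below Cers5 in every sample. With the longest annotated transcript as the length, Cers2 (54.3) stood above Ugcg (51.2) in vehicle-treated samples, where these 2 overlapped. In S1P-treated samples Cers2 (46.0) stood above Ugcg (40.7) without overlap, and Asah1 (15.7) stood above Cers5 (15.4) and Sptlc1 (15.3), with overlap between neighbours. The first place in the order and that of Asah1 with S1P therefore depended on the length used. Levels moved as well, with Asah1 at 13.4, Sptlc2 at 7.16 and Sgms1 at 2.68 in vehicle-treated samples.

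**Figure D3:**
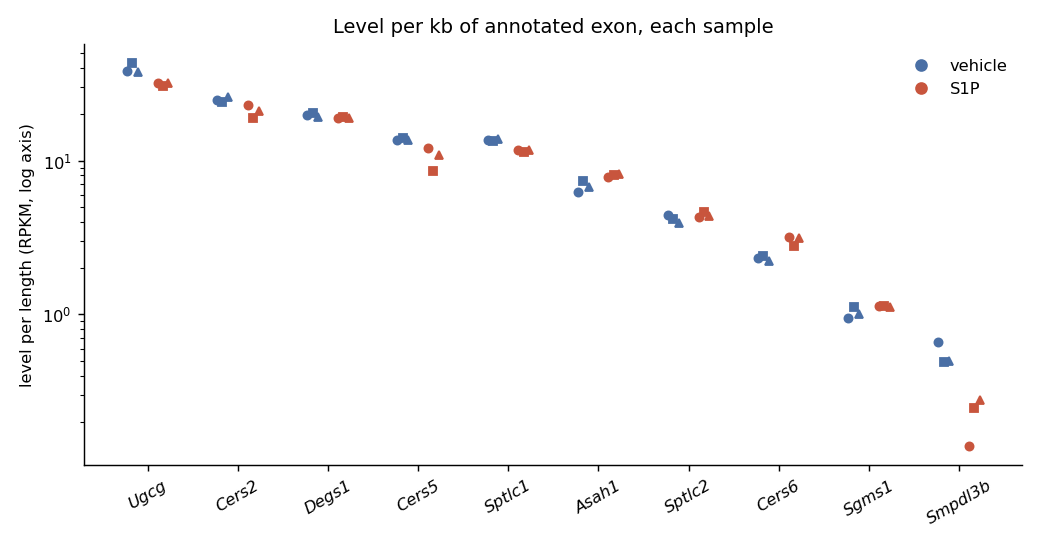
Level per kilobase of annotated exon (RPKM on TMM-scaled libraries, log axis) of each of the 10 genes, in order of the vehicle mean, with 1 point per sample (blue vehicle, red S1P). Levels run from 43.0 for Ugcg in a vehicle-treated sample to 0.139 for Smpdl3b in an S1P-treated sample.

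Around the 10 enzymes, a list of 69 genes of sphingolipid metabolism (the 10 included) was written by role. Of these, 56 had enough counts for a test, and 8 were called higher and 8 lower, 28.6% of those tested beside 23.1% of all tested genes. The median log2FC of the 56 was 0.053. The 46 tested genes other than the 10 enzymes had 7 called higher and 5 lower. Among 6 genes of serine palmitoyltransferase and its regulators, 1 was called (Ormdl2, lower), and among 7 of the later steps of synthesis, 2 were called (Cers5 lower, Cers6 higher). Among 5 genes of ceramide transport and conversion, Cert1 was lower and Sgms2 higher, and Samd8, an ethanolamine phosphotransferase related to the sphingomyelin synthases, passed the adjusted p only (0.29, edgeR adjusted p = 0.0306).

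Of the 9 tested genes of glycosphingolipid synthesis and transfer, Ugcg and B4galt5 were lower and B3gnt5, a transferase that extends lactosylceramide, was higher. B3gnt5 went from 663 ± 45.2 to 874 ± 55.7 normalized counts (SD, n = 3 each, log2FC 0.40, edgeR adjusted p = 0.00407), and it had a log2FC of 0.28, under the fold threshold, with an offset for GC content. Of the 12 genes of lysosomal and other glycosphingolipid breakdown, 3 were higher and 1 was lower. Galc, which removes galactose from galactosylceramide, rose from 89.4 ± 1.75 to 149 ± 11.5 (SD, n = 3 each), a log2FC of 0.74 (edgeR adjusted p = 0.00177). Gm2a, the activator protein for ganglioside hydrolysis, rose from 1181 ± 84.5 to 1598 ± 50.2 (SD, n = 3 each), a log2FC of 0.44 (edgeR adjusted p = 0.00117).

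The sialidase Neu1 was called lower (-0.32, edgeR adjusted p = 0.0184), and lost its call without S1P-treated replicate 3 (-0.29) and vehicle-treated replicates 1 (-0.34), 2 (-0.30) and 3 (-0.35), with edgeR adjusted p values of 0.0637, 0.0579, 0.0668 and 0.0510 (0.0145 to 0.0668 over all alternatives), and with a GC content offset (-0.28). Of the lysosomal genes that did not pass, Gla, Arsa, Hexa, Glb1, Neu3, Gba2 and Psap had log2FC values from -0.21 for Gba2 to 0.47 for Arsa.

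**Figure D4:**
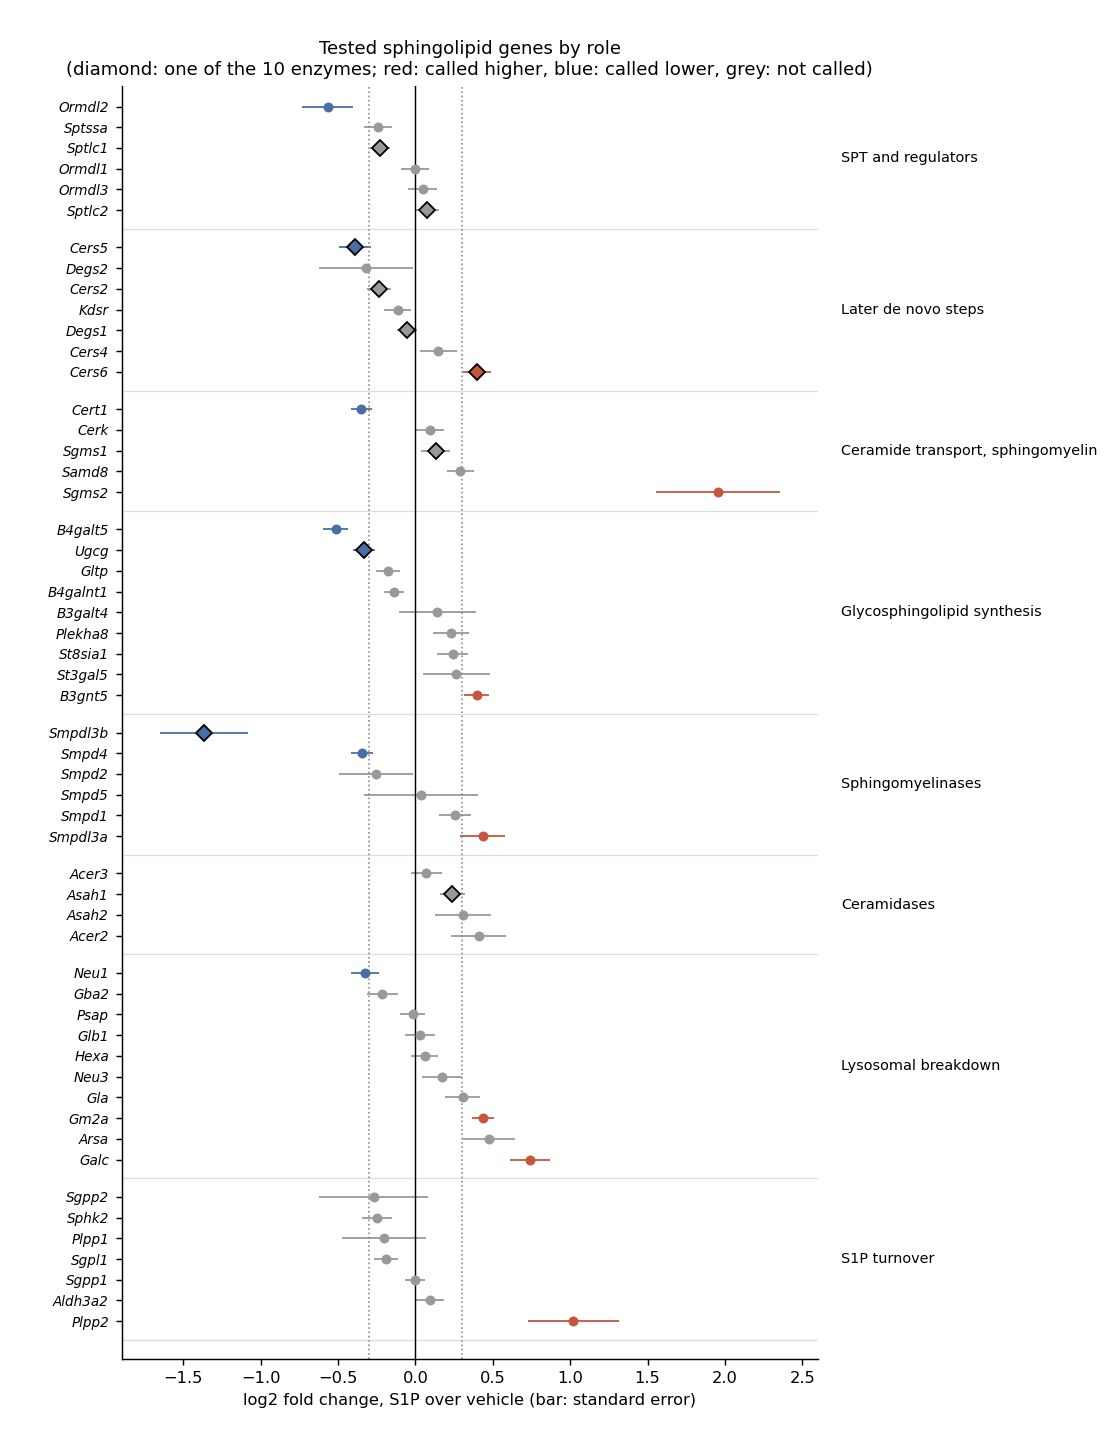
Log2 fold change of S1P over vehicle (horizontal axis, bars are standard errors) of 54 of the 56 tested sphingolipid genes by role, with diamonds for the 10 enzymes and dotted lines at the fold threshold. Red genes were called higher (7 shown) and blue genes lower (8 shown), and Sgms2 and Smpdl3b lie farthest out.

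At the end of the pathway, the sphingosine kinase Sphk2 was at 310, 317 and 346 normalized counts with vehicle and at 255, 294 and 272 with S1P, without overlap (log2FC -0.25, edgeR adjusted p = 0.0714), and Sphk1 had between 0 and 8 counts per sample, too few for a test. The lipid phosphate phosphatase Plpp2 was the 1 called gene among 7 of S1P turnover, higher at 28, 40 and 25 counts with vehicle and 86, 30 and 59 counts with S1P (log2FC 1.02, edgeR adjusted p = 0.0232). It was not called without S1P-treated replicate 1 or 3 (0.86 and 0.92), or vehicle-treated replicate 1 or 3 (0.86 and 0.87), and its edgeR adjusted p ran from 0.000696 to 0.102 over all alternatives.

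**Figure D5:**
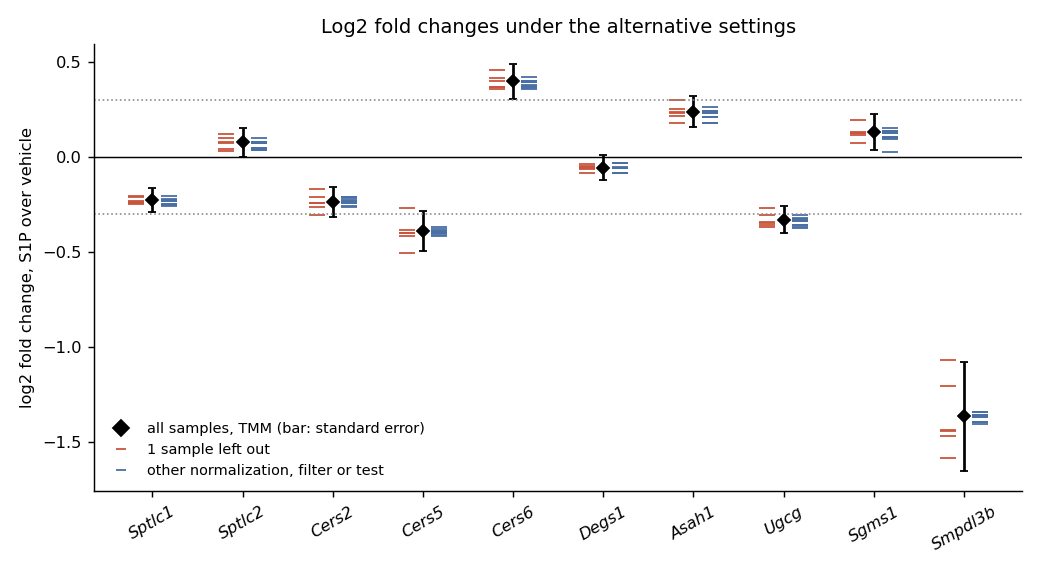
Log2 fold changes of the 10 genes (vertical axis) with all samples (black, bars are standard errors), with 1 sample left out (red) and with another normalization, filter, offset or test (blue). No gene changes sign, and Cers2, Cers5 and Ugcg cross the dotted fold threshold when 1 sample is left out.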

How the data were processed

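The authors sequenced stranded poly(A) libraries of 6 cultures. According to the labels and methods, reads went through Trim Galore and STAR, and featureCounts gave the deposited counts, which are raw and not normalized. GRCm39 and DESeq2 are named in the submitters' processing notes. The annotation release, tool versions and strand setting are not given in the sources used here.

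In R 4.3.3, genes were filtered with filterByExpr and normalized with TMM. A quasi-likelihood fit of treatment alone (edgeR 4.0.16) was made with all 6 samples, and p-values were adjusted by Benjamini-Hochberg over 13299 genes. Normalized counts are counts divided by TMM-scaled library size and multiplied by the mean of these sizes. Depth was 12048880 to 17384084 counts per sample, and 95% intervals come from the fit. GENCODE vM39, which holds 56323 of the 56941 identifiers, gave symbols, positions and lengths, and promoter windows of 250 bases were read from the GRCm39 genome. The fits were tested on simulated data. For S1P against vehicle, 67.7% of the simulated 1.5-fold changes and 86.0% of the 2-fold changes were recovered. Among 13062 genes tested there, 20 unchanged genes were called. Changes smaller than 1.5-fold were not simulated.

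The 10 genes, the list of 69 and the markers were chosen with earlier results of these data known. The text names the 10 genes, called genes of the list, and the synthase, palmitoyltransferase, ceramidase and kinase genes. Others in the text (Kdsr, Samd8, Smpd1 and the uncalled lysosomal genes) were named after their values were seen, and 2 genes of the list are in the counts and are not reported here by name. Alternatives were DESeq2 1.42.0, limma-voom (limma 3.58.1), other normalization factors and count filters, GC content and length offsets, the replicate block and the fit without each sample.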

Additional observations from a re-analysis of the deposited data

How the results depend on the processing

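The 4 called enzyme genes (Cers5, Cers6, Ugcg, Smpdl3b) were the same under all 11 other tests, normalizations, filters, offsets and blocks. With the adjusted p alone 7 of the 10 were called. Fits that left out 1 sample called 2 to 5 of the 10 (2 when vehicle-treated replicate 2 was left out) and 10 to 20 genes of the list of 69, of which 16 were called with all samples (10 when vehicle-treated replicate 2 or 3 was left out). Over all genes, leaving out 1 sample gave 1158 to 1736 higher and 961 to 1492 lower genes, beside 1687 and 1384. Of 373 recomputed fold changes of 22 genes (the 10 and the called genes of the list), 0 changed sign, 36 lost a call (26 of these without 1 sample) and 1 gained one. The cause was not tested. Whether the replicate numbers pair the samples is not given in the labels, and 3 samples per group are too few to decide it. Same-numbered samples had correlations of 0.12, -0.006 and 0.048 between their deviations from the group means. Samples of unlike number had -0.1 to 0.05, and not every sample correlated best with its own number. With the replicate number as a block 1697 genes were higher and 1423 lower, 4 of the 10 enzymes and 16 of the list were called, and with the block and a GC content offset 4 and 16. Without a filter on low counts the median log2 fold change of all genes was 0.159, beside 0.012. Of 52 levels and ratios per length, 32 moved by more than 1 SD, nearly all with the longest transcript as the length. Depth limits Smpdl3b, Sgms2 and Plpp2, with 6 to 86 counts per sample, and Sgms2 was not tested where 10 counts in every sample were required.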
